A study of Mus musculus with 6 samples.

Results

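Superoxide dismutases, catalase, peroxiredoxins and the stress-induced enzymes Hmox1 and Nqo1 were followed in subcutaneous white fat of mice, a depot beneath the skin. The 10 genes Sod1, Sod2, Sod3, Cat, Prdx1, Prdx3, Prdx5, Prdx6, Hmox1 and Nqo1 were taken by their exact names from a table of 36144 gene rows, and each name stood on a single row. The table holds poly-A RNA sequencing of 6 libraries, 3 titled WT and 3 titled Tumor, which the labels call biological replicates without naming the animals. The labels describe these sets in more than 1 way. The titles oppose WT to Tumor, the genotype label gives MSRA WT for the former and MSRA full-body KO for the latter, and an orthotopic transplant is the treatment given for all 6. The design text has pancreatic ductal adenocarcinoma (PDAC) cells placed in wild-type and Msra-deficient hosts and fat collected 4 to 5 weeks later, while the series title contrasts mice with and without pancreatic tumours. The labels give neither strain, age nor sex. The groups are called WT and Tumor here, after the titles.

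Superoxide, a by-product of respiration and of NADPH oxidases, is turned into hydrogen peroxide by superoxide dismutases. Sod1 works with copper and zinc in the cytosol, Sod2 with manganese in the mitochondrial matrix, and Sod3 outside the cell. Hydrogen peroxide is then removed by catalase (Cat) in peroxisomes and by peroxiredoxins, thiol enzymes that are mostly recycled by thioredoxin. Hmox1, haem oxygenase 1, degrades haem to biliverdin, iron and carbon monoxide, and Nqo1 reduces quinones. Both are standard targets of the transcription factor Nrf2 (gene Nfe2l2), which Keap1 holds in check and which acts through the antioxidant response element (ARE). In fat, adipocytes carry many peroxisomes and mitochondria, whereas Hmox1 is high in macrophages that handle haem.

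Values are TPM, a transcript's share of the whole library after division by transcript length, so levels can be compared between genes, but the number of reads behind a value is not known. Each library held 13077 to 14253 genes at 1 TPM or more. Msra did not separate the groups, with 51.1, 59.1 and 56.3 TPM in WT and 52.9, 40.0 and 26.9 TPM in Tumor. Whether the Tumor mice lack a working Msra, as the genotype label has it, was not tested. The 9 adipocyte markers were above 0 in every library, and their sum ran from 31074 to 55115 TPM in WT and from 12892 to 45212 TPM in Tumor, lowest in Tumor replicate 3. WT replicate 3 and Tumor replicate 1 stood apart, with 7.26 and 10.9 TPM over 8 B and plasma cell markers against 919 to 2605 TPM in the other 4 libraries. The 8 skeletal muscle markers summed to 19.5, 2800 and 9.83 TPM in WT and to 1830, 578 and 2332 TPM in Tumor, so WT replicate 2 alone was high in WT. The 8 macrophage markers summed to 1628 to 2013 TPM in WT and 2261 to 4007 TPM in Tumor, without overlap. Lyz2 was the largest part of that sum, at 1234, 978 and 733 TPM in WT and 2214, 1401 and 2167 TPM in Tumor. Taken singly, Lyz2, Cd68 and Csf1r did not overlap between the groups, whereas Adgre1, Mrc1, Cd163, C1qa and C1qb did. In whole tissue, fewer cells of a type and less RNA per cell cannot be told apart.

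Levels of the 10 genes were ordered in much the same way in all libraries. Sod1 was the highest in 6 of 6 libraries and Nqo1 the lowest in 6 of 6, and Prdx3 was in place 7 of 10 in all of them. Prdx1 was in place 2 except in WT replicate 3, where Cat stood above it. Cat and Prdx5 exchanged places between libraries, as did Prdx6 and Sod2, and Sod3 and Hmox1, so the order within each of these pairs was not larger than the spread between libraries. The 10 genes together took 0.291%, 0.314% and 0.398% of all TPM in WT and 0.381%, 0.276% and 0.174% in Tumor. Sod1 alone was 38.6% to 46.2% of that sum.

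**Figure D1:**
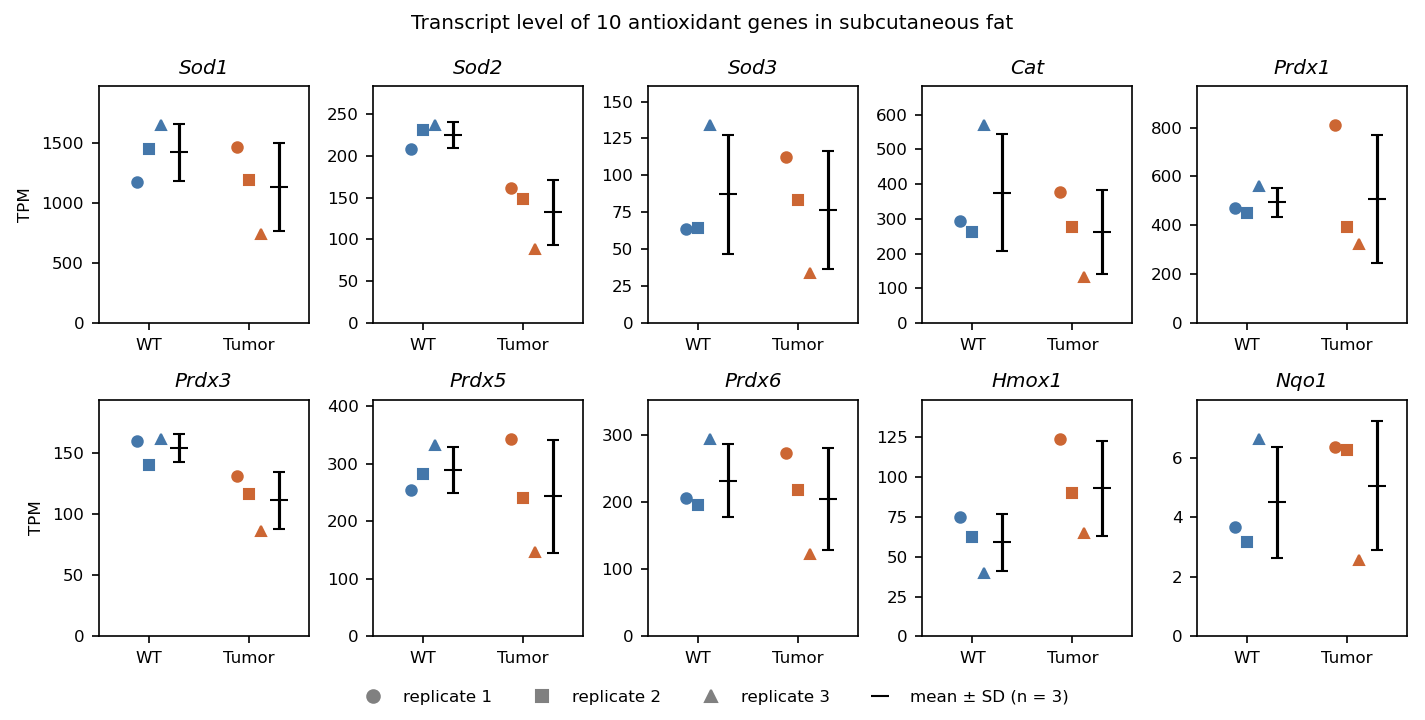
TPM (vertical axes, starting at 0) of each of the 10 genes in the 3 WT (blue) and 3 Tumor (orange) libraries, with the replicate number as the marker shape and the mean ± SD (n = 3) in black. Sod2 and Prdx3 are the members whose WT and Tumor libraries do not overlap, and Tumor replicate 3 is the lowest library for every member except Hmox1.

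Sod2, the manganese enzyme of the mitochondrial matrix (chromosome 17, 13006846 to 13040063, GRCm38, GENCODE M21), showed the largest difference among the 10 genes. It stood at 208, 231 and 236 TPM in the WT libraries and at 161, 148 and 88.4 TPM in the Tumor libraries. All 3 Tumor libraries lay below all 3 WT libraries. The means were 225 ± 15.2 and 132 ± 38.7 TPM (SD, n = 3), 1.70-fold lower in Tumor. On the log2(TPM + 1) scale the difference was -0.80 (SE 0.26). In limma, fitted over 14144 genes, its unadjusted p was 0.0209 and its adjusted p 0.737, so it did not pass the threshold of 0.05. Without Tumor replicate 3 the difference was -0.54.

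Sod1, the abundant cytosolic enzyme (chromosome 16, 90220754 to 90226329), stood at 1172, 1448 and 1648 TPM in WT and at 1471, 1192 and 741 TPM in Tumor. The groups overlapped, and Tumor replicate 3 was the only Tumor library below all WT libraries. The log2 difference of -0.37, with SE 0.33 and adjusted p = 0.768 in limma, was close to its error, and it was -0.089 without Tumor replicate 3. Sod3, the extracellular enzyme (chromosome 5, 52363791 to 52371418), stood at 63.3, 64.5 and 134 TPM in WT and at 112, 83.2 and 33.8 TPM in Tumor. Its highest library was in WT and its lowest in Tumor, with the others mixed. With SE 0.52 the log2 difference was -0.26 (adjusted p = 0.877 in limma). It turned to 0.24 without Tumor replicate 3 and to 0.094 without WT replicate 3. Sod1 and Scaf4 overlap on opposite strands, and it is not given in the sources used here whether reads were assigned by strand, but Scaf4 was low beside it, at 26.3 to 40.4 TPM.

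Prdx3, the peroxiredoxin of mitochondria (chromosome 19, 60864051 to 60874556), was the other member whose groups did not overlap. It stood at 159, 140 and 161 TPM in WT and at 131, 116 and 85.9 TPM in Tumor. Every Tumor library was below every WT library, by a narrow margin between Tumor replicate 1 and WT replicate 2. The means were 154 ± 11.6 and 111 ± 23.1 TPM (SD, n = 3), 1.38-fold lower in Tumor. The log2 difference was -0.48 (SE 0.20), with an unadjusted p of 0.0527 and an adjusted p of 0.737 in limma, and -0.31 without Tumor replicate 3.

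Promoter sequence of Sod2, Prdx3 and Prdx1 is shown because Sod2 and Prdx3 are the members whose groups did not overlap and Prdx1 is a peroxiredoxin with a match to the ARE. The stretches are the 250 bases before the start site in RefSeq on GRCm38.p6, which covered 7 of the 10 members and not Sod3, Prdx6 or Hmox1. They are read 5′ to 3′ on the gene's strand at chr17:13007589-13007838 (plus strand), chr19:60874539-60874788 (minus strand) and chr4:116685349-116685598 (plus strand). The Sod2 stretch lies inside the gene as GENCODE M21 draws it. Those of Prdx3 and Prdx1 reach into their genes at the end nearest the start site. Capitals mark matches to any of the motifs named below, on either strand.
Sod2: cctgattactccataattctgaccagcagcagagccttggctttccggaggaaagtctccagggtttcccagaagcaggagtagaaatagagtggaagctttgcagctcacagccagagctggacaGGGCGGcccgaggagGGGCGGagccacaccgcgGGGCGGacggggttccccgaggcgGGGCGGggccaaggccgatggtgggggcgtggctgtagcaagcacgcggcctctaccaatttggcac
Prdx3: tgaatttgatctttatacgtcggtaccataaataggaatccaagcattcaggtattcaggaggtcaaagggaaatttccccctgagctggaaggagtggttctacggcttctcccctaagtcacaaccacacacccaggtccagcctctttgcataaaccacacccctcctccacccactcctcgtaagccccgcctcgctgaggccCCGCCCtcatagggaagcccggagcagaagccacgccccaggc
Prdx1: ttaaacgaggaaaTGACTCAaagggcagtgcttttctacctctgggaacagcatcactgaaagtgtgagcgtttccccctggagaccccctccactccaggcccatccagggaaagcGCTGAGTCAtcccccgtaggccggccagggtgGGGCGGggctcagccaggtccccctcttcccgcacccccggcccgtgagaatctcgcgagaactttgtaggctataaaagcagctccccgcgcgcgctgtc
The motifs searched on both strands were the ARE core TGACNNNGC, the AP-1 motif TGAGTCA, the GC box GGGCGG and the E-box CACGTG. The GC box, a motif of Sp-family factors, matched in all 7 members with a stretch, 4 times in Sod2 and 1 time in Prdx3. Of 32851 promoter stretches of this length, 32.7% held at least 1. G and C made up 53.2% (Nqo1) to 66.4% (Sod1) of the 7 stretches, against a median of 52.4% over all stretches. Nqo1 was thus close to that median. The part of base composition in the GC box matches was not tested. The ARE core matched in Prdx1 and Sod1 among the 7 members, against 10.2% of all stretches. In Prdx1 that match overlaps an AP-1 match, and an AP-1 motif was held by 4.46% of all stretches. The E-box was in none of the 7 stretches and in 6.02% of all. These matches describe letters in a short window and not factor binding.

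Prdx1, the main cytosolic peroxiredoxin (chromosome 4, 116685544 to 116700822), stood at 472, 449 and 562 TPM in WT and at 809, 393 and 325 TPM in Tumor. Tumor replicate 1 was above all WT libraries and the other 2 Tumor libraries were below them. The log2 difference was -0.069, with SE 0.37 and adjusted p = 0.956 in limma, and the arithmetic means, 495 ± 59.6 and 509 ± 262 TPM (SD, n = 3), pointed the other way. The difference was -0.46 without Tumor replicate 1 and 0.20 without Tumor replicate 3.

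Prdx5, found in mitochondria, peroxisomes and cytosol (chromosome 19, 6906697 to 6910106), stood at 254, 281 and 333 TPM in WT and at 343, 241 and 146 TPM in Tumor. Prdx6, which reduces peroxidised phospholipids and has a single catalytic cysteine (chromosome 1, 161240112 to 161251219), stood at 206, 196 and 294 TPM in WT and at 273, 218 and 123 TPM in Tumor. The groups overlapped for both genes, and Tumor replicate 3 was again the lowest library. The log2 differences were -0.33 for Prdx5 and -0.23 for Prdx6, each with SE 0.34, and the adjusted p-values in limma were 0.790 and 0.840. Without Tumor replicate 3 the differences were -0.0023 and 0.097. Prdx5 overlaps Trmt112 on the opposite strand, which was measured at 45.4 to 95.6 TPM.

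Cat, the peroxisomal catalase (chromosome 2, 103453849 to 103485160), had the widest range of the 10 genes, 4.26-fold from the lowest to the highest library. It stood at 295, 261 and 569 TPM in WT and at 377, 275 and 134 TPM in Tumor. WT replicate 3 was the highest library and Tumor replicate 3 the lowest, which are also the highest and lowest libraries for the summed adipocyte markers. The log2 difference was -0.55, with SE 0.48 and adjusted p = 0.765 in limma. It was -0.13 without Tumor replicate 3 and -0.18 (SE 0.17) with the adipocyte markers as a covariate.

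Hmox1 (chromosome 8, 75093621 to 75100589) was the member with the largest positive difference. It stood at 75.2, 62.3 and 39.8 TPM in WT and at 124, 90.3 and 64.8 TPM in Tumor. Tumor replicates 1 and 2 were above all WT libraries, and Tumor replicate 3 lay between WT replicates 1 and 2. The means were 59.1 ± 17.9 and 93.0 ± 29.7 TPM (SD, n = 3), 1.57-fold higher in Tumor. The log2 difference of 0.64 (SE 0.33) had an adjusted p of 0.737 in limma. It was 0.39 when WT replicate 3 was left out, 0.41 when Tumor replicate 1 was, and 0.16 in the 4 libraries rich in lymphoid transcripts. The macrophage marker sum was highest in Tumor replicate 1 and lowest in WT replicate 3, the libraries with the most and the least Hmox1. Lyz2, the largest part of that sum, and Cd68 were lowest in WT replicate 3. Adgre1, Csf1r, Mrc1, Cd163, C1qa and C1qb were instead higher there than in the other WT libraries. With the mean log2 level of the macrophage markers as a covariate, the Hmox1 difference was 0.42. That mean weighs the markers alike and does not order the libraries as the sum does.

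Nqo1 (chromosome 8, 107388225 to 107403206) was the scarcest member, at 3.68, 3.19 and 6.63 TPM in WT and 6.35, 6.27 and 2.57 TPM in Tumor. Values near 6 TPM and near 3 TPM occurred in both groups. The log2 difference of 0.12, with SE 0.40 and adjusted p = 0.930 in limma, was smaller than its error and changed sign with either scaling factor. Hmox1 and Nqo1, both Nrf2 targets, ranked the libraries in nearly the same order except for WT replicate 3. Among the other 5 libraries, Tumor replicate 1, Tumor replicate 2 and WT replicate 1 had the most of both, in that order. WT replicate 3 had the most Nqo1 and the least Hmox1, with 6.01 Hmox1 transcripts per Nqo1 transcript against 14.4 to 25.2 in the other 5 libraries.

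**Figure D2:**
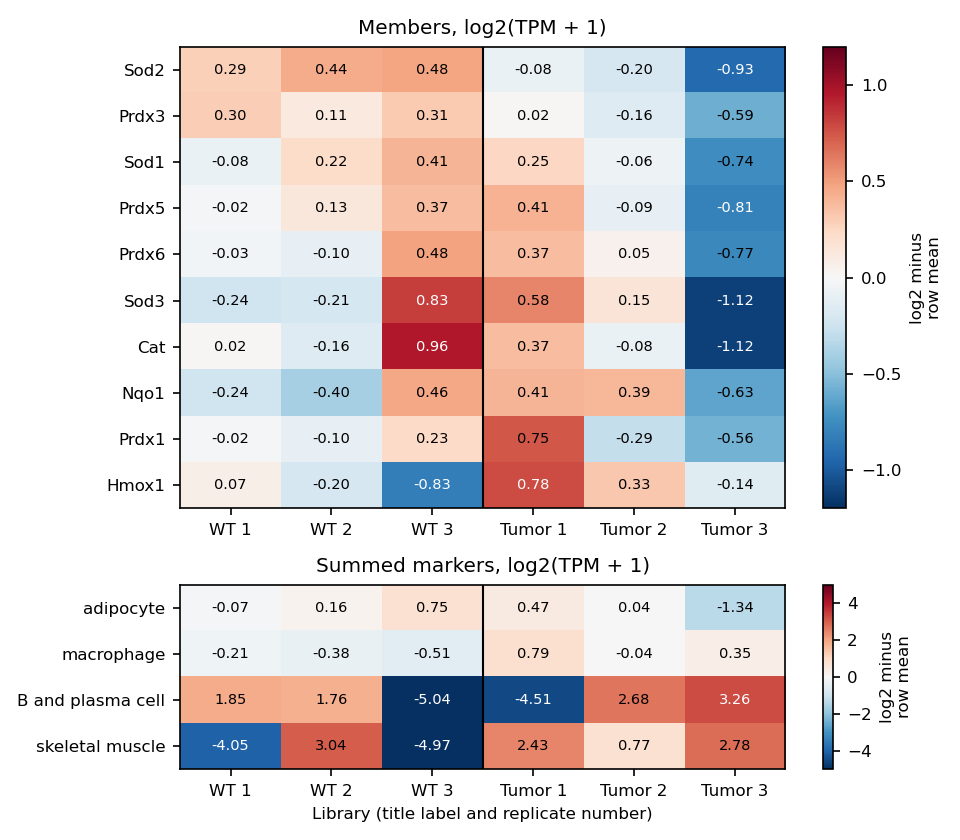
Colour and number give log2(TPM + 1) minus its mean over the 6 libraries, for the 10 members (top) and for the summed TPM of 4 marker lists (bottom), with WT libraries left and Tumor libraries right of the line. Most members are lowest in Tumor replicate 3, as is the adipocyte sum, whereas Hmox1 is lowest in WT replicate 3, as is the macrophage sum. Lyz2 is the largest part of the macrophage sum, and most macrophage markers taken singly are not lowest in WT replicate 3.

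Over the group comparison as a whole, 8 of the 10 members had a negative difference and 2, Hmox1 and Nqo1, a positive difference. None passed limma's adjusted threshold, and 0% of 14144 genes did. At an unadjusted p below 0.05 there was 1 member, Sod2, against 5.45% of all genes. Groups did not overlap for 2 of the 10 members, Sod2 and Prdx3, both lower in Tumor, against 3.24% of all genes lower and 11.8% higher in this way. With median-ratio factors these shares were 6.36% and 4.07%, with upper-quartile factors 5.63% and 4.47%, and Sod2 and Prdx3 did not overlap under either. The median difference was -0.29 over the members and 0.23 over all genes tested. Relative to that median of all genes, Sod2 stood at -1.04, Prdx3 at -0.72 and Hmox1 at 0.41. Tumor replicate 3 was the lowest library for 9 of the 10 members and WT replicate 3 the highest for 7. Without Tumor replicate 3 the members' median was 0.047, with 5 negative and 5 positive.

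Fits with the mean log2(TPM + 1) of a marker list as a covariate gave other values. With the adipocyte markers as a covariate, Sod2 kept a difference of -0.63 (SE 0.13, limma adjusted p = 0.425) and Prdx3 -0.36 (SE 0.12, limma adjusted p = 0.460), while Sod3, Prdx1 and Prdx6 turned to 0.16, 0.15 and 0.032. With the macrophage markers as a covariate 9 of 10 members were negative, Sod2 at -1.05 and Prdx3 at -0.68 (limma adjusted p = 0.173 for each). In the 4 libraries rich in lymphoid transcripts Sod2 was -0.93 and Prdx3 -0.58. A covariate fitted in 6 libraries leaves few degrees of freedom.

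**Figure D3:**
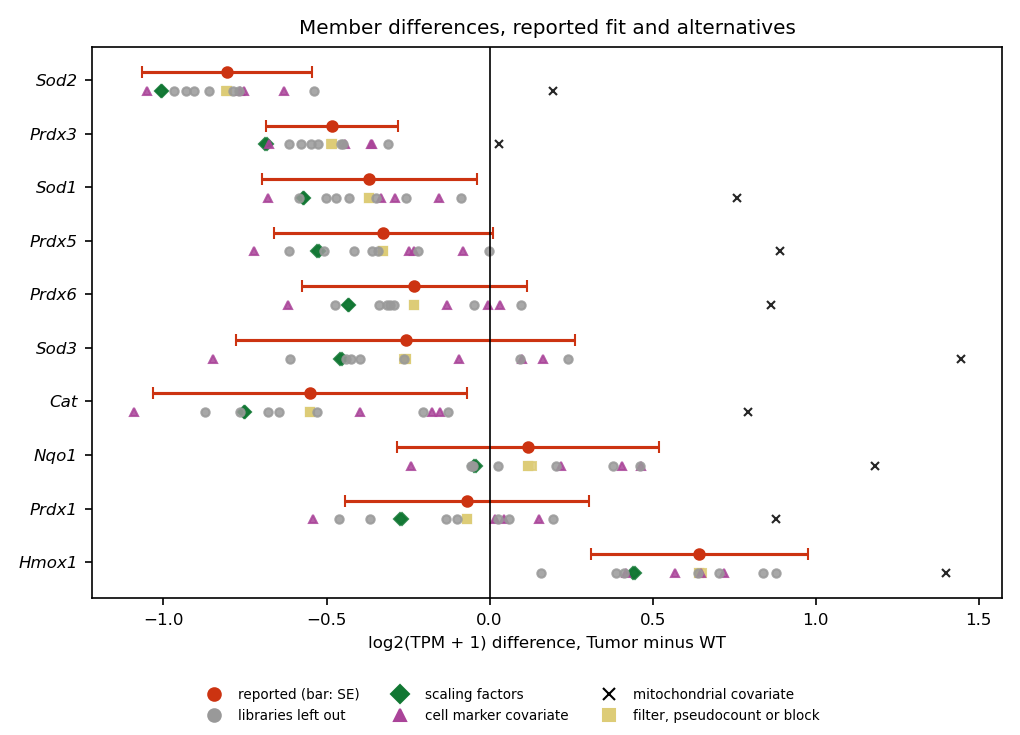
Log2(TPM + 1) difference, Tumor minus WT (horizontal axis), of each member in the reported fit (red, bar: SE) and under every alternative tried (other symbols). Sod2 and Prdx3 stay below 0 in all fits except that with the mitochondrial reference list as a covariate (0.19 and 0.030), and Hmox1 stays above 0 in all of them.

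Ratios between members within a library do not depend on how libraries are scaled to each other. Sod2 transcripts per Sod1 transcript were 0.177, 0.159 and 0.143 in WT and 0.109, 0.124 and 0.119 in Tumor. Every Tumor library was below every WT library. The log2 ratio differed by -0.44, from a mean of -2.65 ± 0.15 in WT to -3.09 ± 0.092 in Tumor (SD, n = 3), with an exact two-sided permutation p of 0.1. That is the smallest p that 3 against 3 libraries can give, and adjusted over the 7 pairs compared it was 0.525. With any single library left out the difference was between -0.52 and -0.36. Prdx3 per Prdx1 was 0.338, 0.313 and 0.287 in WT and 0.162, 0.296 and 0.264 in Tumor, which overlap. Its log2 ratio differed by -0.42 (exact permutation p = 0.2) and by -0.16 without Tumor replicate 1, the library with the most Prdx1. The other 5 pairs had exact permutation p-values of 0.3 to 0.9, among them Cat/Prdx1 with a difference of -0.48 and Hmox1/Nqo1 with 0.52.

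**Figure D4:**
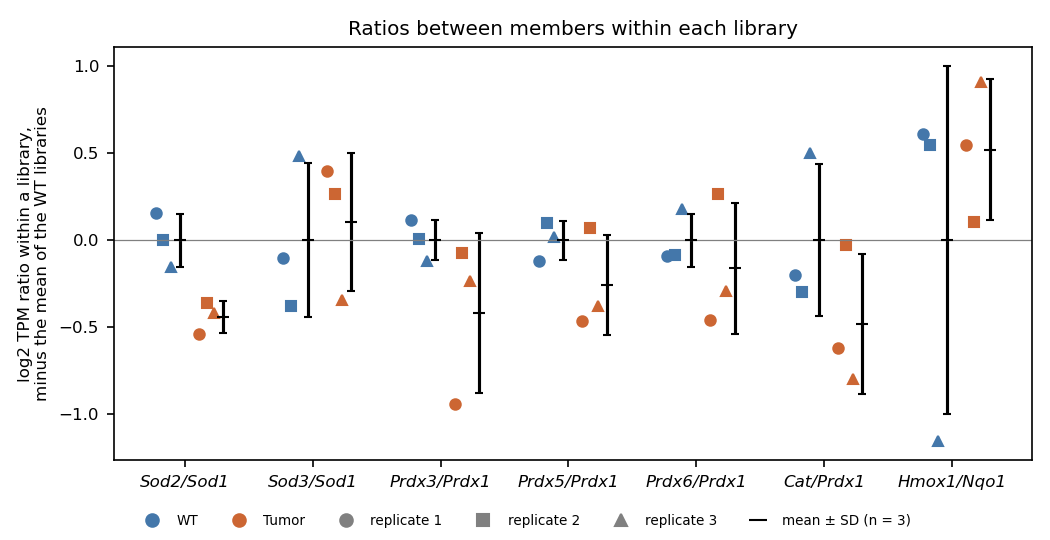
Log2 of the TPM ratio of each of the 7 pairs within a library, less the mean of the WT libraries for that pair (vertical axis), for WT (blue) and Tumor (orange) libraries with mean ± SD (n = 3) in black. Sod2/Sod1 is the pair whose groups do not overlap.

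The mitochondrial members were set beside 15 nuclear genes of respiration, the citrate cycle, mitochondrial protein folding and the outer membrane pore. All 15 had a negative difference, with a median of -0.54, against 23.2% of all genes that were negative. Groups did not overlap for 14 of them, all lower, against 3.24% of all genes (6.36% and 5.63% with the scaling factors). Mdh2, the mitochondrial malate dehydrogenase, stood at 356, 432 and 399 TPM in WT and at 277, 268 and 216 TPM in Tumor. Cox5a and Uqcrc1, subunits of respiratory complexes IV and III, followed, with log2 differences of -0.69 and -0.54. The geometric mean of the 15 was 321, 376 and 343 TPM in WT and 258, 252 and 194 TPM in Tumor. Sod2 was 64.6%, 61.3% and 68.9% of that mean in WT and 62.3%, 58.7% and 45.5% in Tumor, so Tumor replicate 1 was within the WT range and Tumor replicates 2 and 3 below it. Prdx3 was 37.3% to 49.6% of it in WT and 44.2% to 50.8% in Tumor, which overlap. Markers of brown and beige adipocytes, which are rich in mitochondria, were also at lower levels in Tumor. Their 5 genes summed to 812, 2143 and 838 TPM in WT and to 253, 378 and 223 TPM in Tumor, without overlap. All 5 were negative, with a median of -1.86, 4 of them did not overlap between the groups (80.0%, against 3.24% of all genes lower), and none was at 0 in any library. Their part in the values of Sod2, Prdx3 and the mitochondrial list was not tested.

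Peroxisomal genes, the surroundings of Cat, mostly had negative differences. Of 24 genes 22 had a negative difference, against 23.2% of all genes, and 3 did not overlap between the groups, all lower (12.5%, against 3.24% of all genes lower), with a median of -0.38 that was -0.063 without Tumor replicate 3. Acaa1b, a thiolase of peroxisomal fatty acid oxidation, stood at 22.8, 32.2 and 30.9 TPM in WT and at 15.5, 11.3 and 4.66 TPM in Tumor. Pex16, needed to build peroxisomal membranes, stood at 116, 134 and 161 TPM against 94.1, 87.5 and 61.1 TPM. For Abcd3, a peroxisomal fatty acid carrier, and Pex14, part of the import machinery, the differences were -0.61 and -0.46. None of these passed limma's adjusted threshold (adjusted p = 0.737 for each).

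The 19 genes that work beside the peroxiredoxins and Cat, among them thioredoxins, glutathione peroxidases and the other peroxiredoxins, had 8 positive and 11 negative differences. Their median was -0.012, but -0.21 with either scaling factor, -0.32 without Tumor replicate 1, 0.10 without WT replicate 3 and 0.11 without Tumor replicate 3. Groups did not overlap for 2 that were higher (10.5%, against 11.8% of all genes) and 3 that were lower (15.8%, against 3.24%). Txnrd2, the mitochondrial thioredoxin reductase that recycles the thioredoxin used by Prdx3, stood at 26.9, 31.0 and 31.5 TPM in WT and at 22.7, 23.9 and 18.2 TPM in Tumor. Glrx2, a mitochondrial glutaredoxin, stood at 68.3, 66.2 and 68.2 TPM against 56.8, 52.8 and 52.5 TPM. Both were below the WT range in all 3 Tumor libraries, as Sod2 and Prdx3 were. Prdx4, the peroxiredoxin of the endoplasmic reticulum, was above it, at 33.6, 37.2 and 43.3 TPM in WT and 59.9, 50.5 and 45.4 TPM in Tumor, a log2 difference of 0.44 with SE 0.18 and adjusted p = 0.737 in limma. Sesn1, a sestrin, had a difference of 0.58 with overlapping groups.

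Nrf2 pathway genes did not follow 1 direction either. Of 25 genes 16 were positive and 9 negative, with a median of 0.13 that was -0.064 with median-ratio and -0.058 with upper-quartile factors. Groups did not overlap for 4 that were higher (16.0%, against 11.8% of all genes) and for 2 that were lower (8.0%, against 3.24%). Bach1, a repressor of Hmox1 that haem inactivates, stood at 7.69, 7.21 and 7.54 TPM in WT and at 14.5, 9.44 and 15.9 TPM in Tumor. Ephx1, microsomal epoxide hydrolase, stood at 52.2, 49.5 and 47.3 TPM against 70.8, 73.1 and 82.8 TPM. The glutathione transferases Gsta3 and Gsta4 went the other way, Gsta3 from 96.4, 54.5 and 113 TPM to 50.0, 33.2 and 15.8 TPM and Gsta4 with a log2 difference of -0.80. Each of these had a limma adjusted p of 0.737.

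Around Hmox1, the haem and iron list gave 10 positive and 6 negative differences among 16 tested genes of 17, with a median of 0.099 that was -0.11 with median-ratio factors and -0.18 without Tumor replicate 1. Hmox2, the constitutive haem oxygenase, stood at 60.4, 65.0 and 60.5 TPM in WT and at 73.6, 65.9 and 72.2 TPM in Tumor, a log2 difference of 0.18 (SE 0.13). Ireb2, an iron-sensing RNA-binding protein, had a difference of 0.47, and it and Hmox2 were the 2 genes of the list whose groups did not overlap (12.5%, against 11.8% of all genes higher). The iron exporter Slc40a1 and the membrane transporter Flvcr1 overlapped, with differences of 0.74 and 0.47. Of the sources of superoxide and the copper carriers that supply Sod1 and Sod3, 11 of 12 genes were positive, against 76.8% of all genes. Their median was 0.56, but 0.30 without WT replicate 3 and 0.36 without Tumor replicate 2. Cybb, the catalytic subunit of the phagocyte NADPH oxidase, stood at 19.8, 14.9 and 8.82 TPM in WT and at 27.5, 32.6 and 41.2 TPM in Tumor, without overlap. Groups did not overlap for 2 of the 12 genes, both higher (16.7%, against 11.8% of all genes higher). Ncf1 and Cyba, also oxidase subunits, overlapped, with differences of 1.15 and 0.78. Macrophages also make these subunits. Of the 8 macrophage markers 6 had a positive difference, against 76.8% of all genes, and 3 did not overlap between the groups, all higher (37.5%, against 11.8%). None was at 0 in any library. Their sum, of which Lyz2 was the largest part, was 1628 to 2013 TPM in WT and 2261 to 4007 TPM in Tumor. Their part in the oxidase values was not tested.

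Genes with the most similar profiles were sought among non-members with a mean of at least 20 TPM, by the root mean square (RMS) difference of mean-centred log2(TPM + 1) over the 6 libraries. Sod2 was nearest to Idh3a, a subunit of mitochondrial isocitrate dehydrogenase (RMS 0.081), and to Nudt7, a peroxisomal coenzyme A hydrolase (RMS 0.087). Prdx3 was nearest to Atp5g3, a subunit of ATP synthase, and Ptges2, at 0.049 and 0.050. The nearest to Cat was Alas1, the rate-limiting enzyme of haem synthesis (RMS 0.048), at 230, 215 and 474 TPM in WT and 318, 236 and 116 TPM in Tumor. Prdx6 had the closest neighbour of any member, Pgrmc1, a haem-binding membrane protein (RMS 0.013), at 95.5, 93.0 and 140 TPM against 128, 104 and 57.8 TPM, followed by Tspo (RMS 0.041). Prdx1 was nearest to Ctsd, a lysosomal protease, and Blvrb, a biliverdin reductase (RMS 0.10 and 0.12). Hmox1 had no close neighbour, the nearest being Cpxm1 at 0.15 and Uap1l1 at 0.20. For Sod3 the nearest were Kctd17 and Spaca6, for Prdx5 Hcfc1r1 and Creld1, and for Nqo1 Klhl22 and Ivd. Those of Sod1 were 1110032A03Rik and a row that bears a spreadsheet date, 5-Mar, for a name. With 6 libraries such likeness describes these libraries only.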

How the data were processed

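Poly-A RNA of subcutaneous fat was sequenced in 6 libraries. RNA integrity numbers exceeded 7 and TruSeq libraries were made, per the labels' protocols. The submitters' processing notes name GRCm38.p6 and DESeq2, with no role. Which aligner, quantification tool and annotation were used is not given in the sources used here. In GEO the authors deposited 1 table, named as raw counts, whose values are TPM: each column sums to 1000000 and values are not whole. Depth per library is therefore unknown and no count test was run.

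Genes reaching 1 TPM in 3 or more libraries (14144 of 36144 rows) were tested on log2(TPM + 1) by limma 3.58.1 (R 4.3.3), with variance trend, robust moderation and group alone, and Benjamini-Hochberg adjustment over all of them at 0.05. Differences understate changes of low genes. Rows with a spreadsheet date for a name (26) stayed in the fit. The procedure was tested on simulated data. Ratios were tested by exact permutation. Coordinates are from GENCODE M21 and promoters from RefSeq on GRCm38.p6. The members, lists, motifs and tests were chosen with earlier results of these data known. Named genes are the 10 members, Msra, the 4 genes of each pathway list with the smallest unadjusted p, and the 2 nearest profiles per member; some genes that this rule takes are not reported here. Alternatives were scaling factors, filters, a pseudocount of 0.1, marker covariates, a replicate block and libraries left out. The skeletal muscle and mitochondrial reference covariates were chosen after seeing the data. Python 3.11.15 with matplotlib 3.10.9 drew the figures.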

Additional observations from a re-analysis of the deposited data

How the results depend on the processing

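No member passed the adjusted threshold under any of the 18 alternatives, and the lowest limma adjusted p of a member among them was 0.173. Over all genes the count was 0 in each, except 1 with the B and plasma cell covariate. The count at an unadjusted p below 0.05 was 771, and ran from 183 with the replicate block to 3630 with the macrophage covariate. Of 180 member values under an alternative, 154 kept their direction and 26 turned. Nqo1 turned to -0.048 with median-ratio factors, to -0.042 with upper-quartile factors and to -0.24 with the macrophage covariate. With the adipocyte covariate Sod3, Prdx1 and Prdx6 turned to 0.16, 0.15 and 0.032, Prdx1 also to 0.045 with the B and plasma cell covariate, and with the skeletal muscle covariate Sod3 and Prdx1 turned to 0.10 and 0.016. The mean level of the mitochondrial reference list did not overlap between the groups, and as a covariate it turned Sod1 to 0.76, Sod2 to 0.19, Sod3 to 1.44, Cat to 0.79, Prdx1 to 0.88, Prdx3 to 0.030, Prdx5 to 0.89 and Prdx6 to 0.86, with standard errors of 0.33 to 0.92. With single libraries left out the ranges of the members that turned were -0.61 to 0.24 for Sod3, -0.46 to 0.20 for Prdx1, -0.47 to 0.097 for Prdx6 and -0.058 to 0.46 for Nqo1. Those of the others were -0.97 to -0.54 for Sod2, -0.61 to -0.31 for Prdx3, -0.58 to -0.089 for Sod1, -0.87 to -0.13 for Cat, -0.61 to -0.0023 for Prdx5 and 0.39 to 0.88 for Hmox1. The cause of these turns was not tested. The ratio of Sod3 to Sod1 ran from -0.085 to 0.35 and that of Hmox1 to Nqo1 from -0.058 to 0.82 with single libraries left out. In the 4 libraries rich in lymphoid transcripts Prdx6/Prdx1 turned to 0.073 and Hmox1/Nqo1 to -0.070. Deviations of same-numbered libraries from their group means correlated across genes at -0.76, 0.20 and -0.84. The highest correlation, 0.85, was between WT replicate 3 and Tumor replicate 1, both poor in lymphoid transcripts. Such correlations cannot show whether same-numbered libraries share a batch. The fit with the replicate block called 0 genes and left each member's difference as it was, with limma adjusted p = 0.985 for Sod2. Depth limits cannot be given for TPM, and Nqo1, at 2.57 to 6.63 TPM, is the member they would touch most.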

Other observations

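Set against Adipoq, a hormone made by adipocytes, the members showed a different order of libraries. Sod3 was 3.77% to 4.48% of the Adipoq level in WT and 3.26% to 4.70% in Tumor, an even share in all 6 libraries although its own level ranged 3.95-fold. Cat was 15.3% to 20.9% of it in WT and 10.9% to 18.6% in Tumor. Prdx1, in contrast, was 16.5% to 33.4% of the Adipoq level in WT and 19.4% to 45.1% in Tumor, and Hmox1 1.17% to 5.32% and 3.59% to 8.99%. Sod2 was 6.94% to 14.7% of it in WT and 4.66% to 12.3% in Tumor, and Prdx3 4.74% to 11.3% and 3.80% to 11.9%, so neither separated the groups on this scale. The shares overlapped between the groups for all 6 of these genes and were not tested.

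Among the members themselves, the closest pair of profiles was Sod1 with Prdx5 (RMS 0.090 on the log2 scale), followed by Prdx5 with Prdx6 (0.12), Prdx6 with Sod1 (0.15) and Cat with Sod3 (0.17). Prdx3 stood at 0.20 from Sod1 and 0.21 from Sod2. The most distant pair was Hmox1 with Cat (0.87). Red cell transcripts, globins among them, overlapped between the groups, with 6 erythroid markers summing to 1048 to 2831 TPM in WT and 798 to 3733 TPM in Tumor, highest in Tumor replicate 2 and lowest in Tumor replicate 3.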
